A study of Mus musculus with 18 samples.

Results

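The 10 genes described here encode the V0 domain of the vacuolar H+-ATPase (V-ATPase) and its accessory subunits. They are Atp6v0a1, Atp6v0a2, Atp6v0b, Atp6v0c, Atp6v0d1, Atp6v0d2, Atp6v0e, Atp6v0e2, Atp6ap1 and Atp6ap2. They were taken by name from a count table of 11243 genes, and all 10 were present in it. The cells were RAW264.7, an established mouse macrophage line, so each result concerns this line. Control cells received the vehicle DMSO, and per the study's methods the sequenced cells were those of its 6 h time point. A second group received 500 ng/mL lipopolysaccharide (LPS, from Salmonella enterica) for 6 h. In the remaining group, 100 nM torin1, an active-site inhibitor of the mTOR kinase, was given 15 min ahead of the same 6 h exposure to LPS. Every torin1 sample therefore also carries LPS, and torin1 without LPS was not analysed here. Each of 3 experiments gave 1 lysate per treatment, and from each of the 9 lysates total mRNA and mRNA from heavy polysomes were sequenced, giving 18 libraries. The comparisons answer how LPS changed the mRNA of these subunits, and how much of it lay on polysomes, with mTOR active or inhibited.

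The V-ATPase pumps protons into endosomes and lysosomes. Its cytosolic V1 domain hydrolyses ATP and turns a rotor, and the membrane-embedded V0 domain carries protons through the bilayer as its ring of proteolipids rotates past the a subunit. The a subunit exists as isoforms that are sorted to different membranes. The proteolipids c (Atp6v0c) and c'' (Atp6v0b) form the ring, d caps it and joins it to the central stalk, and e is a small membrane protein. Atp6ap1 (Ac45) and Atp6ap2, which is also known as the prorenin receptor, are accessory subunits needed to assemble and traffic the pump. The V-ATPase also takes part in amino acid sensing upstream of mTORC1 on the lysosome, and its genes are among the targets of TFEB and related factors, which bind an E-box with the core CACGTG.

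The count tables held 27800983 to 38175777 counts per total mRNA library and 34930909 to 47725557 per polysome library. Of 8 listed LPS response symbols 5 were present, and all 5 rose with LPS in both RNA types. Il6, Nos2 and Acod1 were not in the table, though Irg1, an older symbol of Acod1, was counted. Of 11 listed macrophage symbols 10 were present, and the other, Emr1, is an older symbol of Adgre1, which was counted. None of the listed fibroblast, T cell, B cell or epithelial markers was in the table, which holds no gene with a 0 count in any library. As these are bulk libraries, fewer cells of a type and less RNA per cell cannot be told apart, and p-values measure the spread over 3 experiments in 1 line.

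Promoter sequence is shown for the letters of that E-box, since V-ATPase genes are known targets of the factors that bind it and several of these subunits rose together with LPS. RefSeq promoters on GRCm38.p6, from 250 bases before to 50 bases after each annotated start, were found for 8 of the 10 genes, and Atp6v0a2 and Atp6v0d2 had no entry. CACGTG, which reads the same on both strands, was present in Atp6v0b, Atp6v0d1 and Atp6v0e. It was not present in the windows of Atp6v0a1, Atp6v0c, Atp6v0e2, Atp6ap1 and Atp6ap2. The windows of Atp6v0a1 (chr11:101010148-101010447) and Atp6v0e (chr17:26676146-26676445) lie inside these genes as GENCODE annotates them. Their GENCODE starts, at 101009452 and 26663231, were not searched. Across all genes with a promoter in the table, 8.09% held CACGTG, 4.29% held TCACGTG and 2.55% held GTCACGTG, each longer motif containing the shorter one and searched on both strands. All 3 of these subunit genes held TCACGTG, and Atp6v0b and Atp6v0d1 held GTCACGTG. The stretch around the motif is shown for each, 5′ to 3′ on the gene's strand, with CACGTG in capitals.
Atp6v0b, chr4:117887348-117887377, minus strand: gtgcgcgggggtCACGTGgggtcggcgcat
Atp6v0d1, chr8:105566050-105566079, minus strand: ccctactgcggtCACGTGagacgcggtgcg
Atp6v0e, chr17:26676387-26676416, plus strand: tagcgcgccgatCACGTGagcctctgttga
The motif began 36 bases before the RefSeq start in Atp6v0b, which held another copy 18 bases before it. It began 3 bases before the start in Atp6v0d1 and 3 bases after it in Atp6v0e. A match describes letters only, and binding of any factor was not measured here.

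LPS raised most of the V0 and accessory mRNAs by small amounts, raised Atp6v0a1 strongly and lowered Atp6v0e2. In total mRNA 9 of the 10 genes were called changed at a false discovery rate (FDR) of 0.25, the threshold of the study, by edgeR's quasi-likelihood test with Benjamini-Hochberg adjustment. Of these, 8 rose and 1, Atp6v0e2, fell, while Atp6v0d2 was not called. Unless a block is named, the edgeR fits here and below held no term for the experiment. Their SEs, intervals and p-values therefore do not use the pairing of libraries by experiment. Of all 11243 genes 66.5% were called, 32.2% upward and 34.3% downward, so the number of calls is read against a background in which most genes moved. The median log2 fold change of the 10 genes was 0.23, against −0.02 for all genes. The libraries of the 2 treatments did not overlap for 7 of the 10 genes, against 53.9% of all genes. Without experiment 1, Atp6v0e (log2 fold change 0.17) and Atp6ap2 (0.18) were no longer called in total mRNA. Atp6v0c was lost without experiment 2 (0.41) or 3 (0.51), and Atp6ap1 without any 1 of the 3 experiments (0.13 to 0.19).

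On heavy polysomes the LPS response was of the same kind, with 7 of 10 genes called, 6 higher and 1 lower. Of all genes 55.1% were called there, 26.4% upward and 28.7% downward, and the median was 0.28 for the 10 genes against −0.03 for all. Groups did not overlap for 6 of the 10 genes, against 46.2% of all genes. Without experiment 1, Atp6v0d1 (0.40) and Atp6v0e (0.20) were not called, and Atp6ap2 was lost without experiment 1 (0.36) or 3 (0.21). Atp6v0a2 was lost without any 1 of them (0.15 to 0.34).

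With torin1 added to LPS, most of these mRNAs were higher in total mRNA than with LPS alone. Atp6v0d2 was higher by the widest margin, and Atp6v0a2 was lower. In total mRNA 9 of 10 genes were called against LPS alone, with 8 higher and 1, Atp6v0a2, lower, while 53.7% of all genes were called, 27.3% upward and 26.4% downward. The median log2 difference was 0.29 for the 10 genes and 0.00 for all. The groups did not overlap for 9 of the 10 genes, against 42.0% of all genes. Without experiment 3 only 5 of the 10 remained called, since Atp6v0b (0.22), Atp6v0d1 (0.28), Atp6v0e (0.17) and Atp6ap2 (0.12) no longer passed. On polysomes 3 of 10 were called, namely Atp6v0a1 and Atp6v0d2 upward and Atp6v0a2 downward, against 38.4% of all genes, 20.3% upward and 18.2% downward. The polysome median was 0.16 for the 10 genes and −0.00 for all, and groups did not overlap for 4 of the 10 genes, against 32.6% of all. Without experiment 2 the polysome count was 6, with Atp6v0c (0.68), Atp6v0e2 (−0.26) and Atp6ap2 (0.33) added. Atp6v0a2 was lost without experiment 1 (−0.32) or 3 (−0.34). Same-numbered polysome libraries with LPS and with LPS and torin1 deviated together, and with the experiment as a block 4 of the 10 were called, Atp6v0d1 (0.28, adjusted p = 0.13) being added, against 49.7% of all genes.

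Set against the vehicle control, cells with LPS and torin1 had 9 of 10 genes called in total mRNA and 9 of 10 on polysomes, in each case 8 higher and 1, Atp6v0e2, lower. The backgrounds were 66.7% of all genes in total mRNA, with 33.1% upward and 33.6% downward, and 58.2% on polysomes, with 28.5% upward and 29.7% downward. Groups did not overlap for 10 of 10 genes in total mRNA, against 61.2% of all genes, and for 6 of 10 on polysomes, against 46.9%. On polysomes, Atp6v0e (0.34) and Atp6ap2 (0.43) were not called without experiment 1, and Atp6ap2 (0.36) and Atp6v0c (0.56) not without experiment 3. Atp6v0c was also lost without experiment 2 (0.18), where Atp6v0a2 was called at −0.22, and Atp6ap1 was lost without experiment 1 or 3 (0.33 to 0.38). These 3 contrasts share the control, LPS or LPS with torin1 libraries between them, so their values are given side by side and are not independent of each other.

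**Figure D1:**
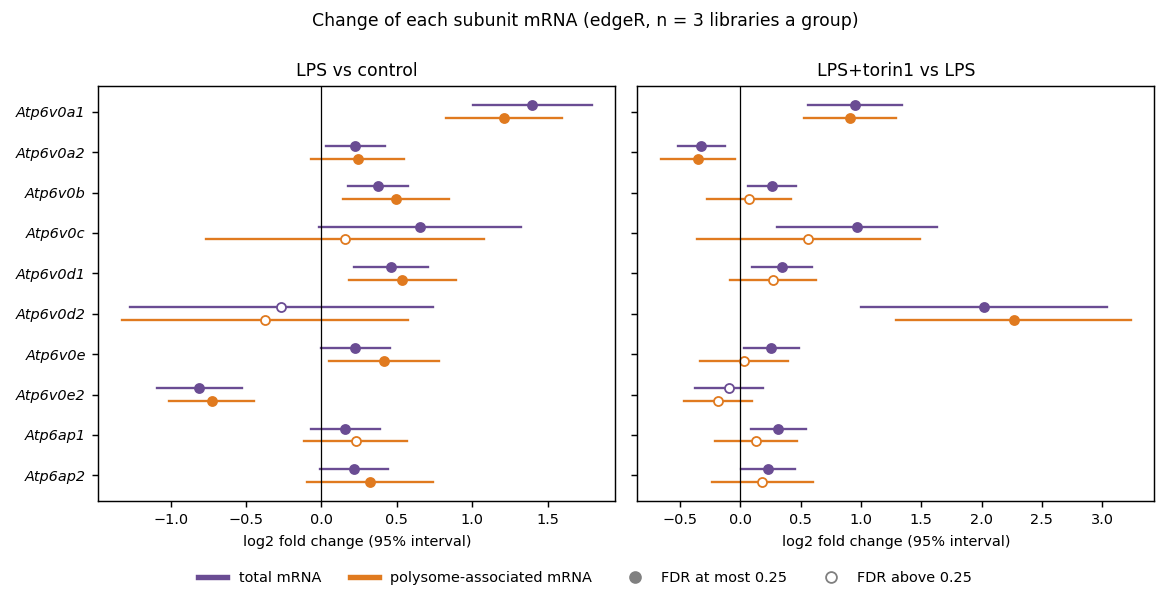
Log2 fold change of each subunit gene with its 95% interval, for LPS against control (left) and for LPS with torin1 against LPS alone (right), in total mRNA (purple) and polysome-associated mRNA (orange), with filled points at an FDR of at most 0.25. Atp6v0a1 lies to the right in both panels, Atp6v0e2 to the left with LPS, and Atp6v0d2 at 2.02 and 2.26 with torin1.

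Atp6v0a1 (chr11:101009452-101063719, plus strand, GRCm38), the a1 isoform of the subunit that forms the proton path, rose at each step. In total mRNA it stood at 38.6, 43.4 and 46.2 CPM (counts scaled to the library total, TMM-normalized) in control experiments 1, 2 and 3, at 92.7, 124.4 and 121.2 CPM with LPS, and at 165.5, 224.7 and 264.9 CPM with LPS and torin1. On polysomes it was at 58.7, 52.2 and 55.3 CPM, then 119.2, 134.6 and 131.5 CPM, then 181.4, 248.3 and 280.7 CPM. No library of one treatment overlapped another in either RNA type. The log2 fold change with LPS was 1.40 (SE 0.18, edgeR adjusted p = 0.00013), a 2.64-fold rise, in total mRNA and 1.21 (SE 0.17, adjusted p = 0.00045) on polysomes. Torin1 added a further 0.95 (SE 0.18, adjusted p = 0.0034) in total mRNA and 0.91 (SE 0.17, adjusted p = 0.0079) on polysomes. Against control, cells with both agents had 5.11 times as much in total mRNA, and the rise was seen in 3 of 3 experiments.

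Atp6v0a2 (chr5:124628576-124724455, plus strand), the a2 isoform, moved little and in the opposite direction with torin1. Its total mRNA was at 108.1, 107.7 and 114.6 CPM in control, 119.8, 131.8 and 134.6 CPM with LPS and 100.9, 104.4 and 103.6 CPM with LPS and torin1. The LPS libraries were the highest of the 9, without overlap. The change with LPS was 0.23 (SE 0.09, adjusted p = 0.059), and the torin1 difference was −0.32 (SE 0.09, adjusted p = 0.021). On polysomes the same contrasts gave 0.24 (SE 0.14, adjusted p = 0.21) and −0.35 (SE 0.14, adjusted p = 0.12). LPS with torin1 did not differ from control beyond the threshold, at −0.10 (adjusted p = 0.40) in total mRNA and −0.11 (adjusted p = 0.56) on polysomes. An antisense gene overlaps Atp6v0a2, and 10.8% of the 50-base words of its main transcript, the one GENCODE numbers first, occur in other genes. The library kit keeps strand, but the strand setting of the counting is not given in the sources used here.

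Tcirg1, the a3 isoform found on lysosomes and on the ruffled border of osteoclasts, is not one of the 10 genes but completes the a subunits in this table, as Atp6v0a4 was not counted. It rose with LPS by 1.15 (SE 0.13, adjusted p = 4.9e-05) in total mRNA and by 0.95 (SE 0.25, adjusted p = 0.014) on polysomes. Per kilobase of exon, it made up 63.9% ± 0.782 (SD, n = 3) of the total mRNA of the 3 a isoforms in control, 71.0% ± 2.60 after LPS and 72.0% ± 3.13 with both agents. Over the same groups the share of Atp6v0a1 was 10.3% ± 0.709, 13.6% ± 1.24 and 19.2% ± 3.45, and that of Atp6v0a2 was 25.8% ± 0.270, 15.3% ± 1.73 and 8.87% ± 0.366. The a2 share thus lay below the a1 share in cells with both agents, whereas it lay above it in control. With the length of the main transcript in place of all exons, a1 and a2 had shares of 10.6% and 20.5% in control, and of 18.9% and 6.73% with both agents.

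**Figure D2:**
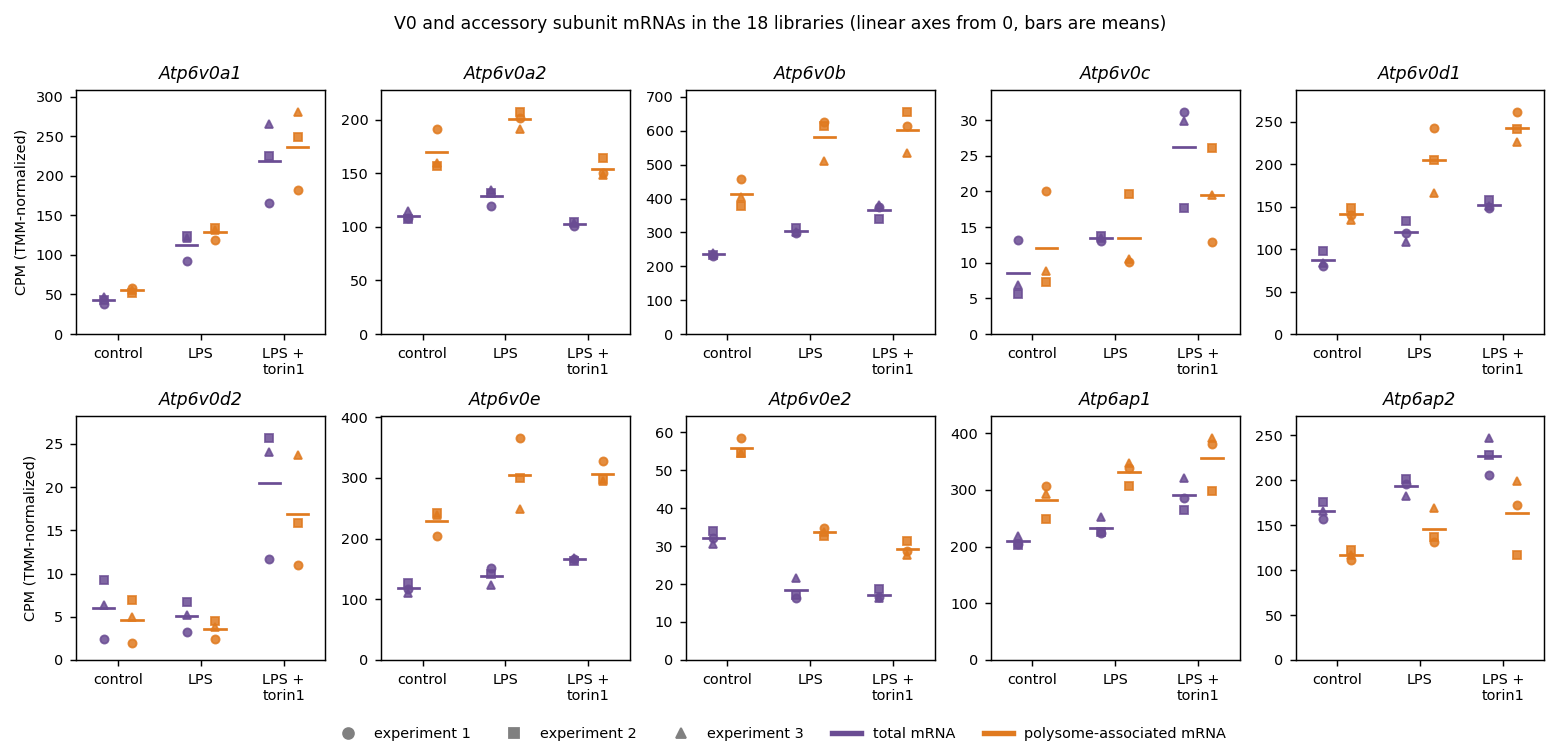
CPM of each of the 10 genes in every library, on linear axes that start at 0, by treatment, with total mRNA in purple, polysome-associated mRNA in orange, a marker shape for each experiment and bars at the means of 3. Atp6v0a1 climbs from 42.7 to 218 CPM in total mRNA, Atp6v0d2 is at or below 9.30 CPM in libraries without torin1, and Atp6v0e2 drops with LPS.

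Of the proteolipids, Atp6v0b (chr4:117884326-117887333, minus strand), the c'' subunit, had more mRNA per kilobase than the other 9 genes in all 6 groups. In total mRNA it averaged 235 ± 3.37 CPM in control, 304 ± 8.45 CPM with LPS and 365 ± 22.7 CPM with both agents (SD, n = 3), with no overlap between groups. On polysomes the averages were 413 ± 41.3, 583 ± 63.8 and 602 ± 62.4 CPM, and the libraries with LPS overlapped those with LPS and torin1. LPS raised it by 0.37 (SE 0.09, adjusted p = 0.0062) in total mRNA and 0.50 (SE 0.16, adjusted p = 0.035) on polysomes. With torin1 it rose by a further 0.26 (SE 0.09, adjusted p = 0.050) in total mRNA, while on polysomes the difference was 0.07 (95% interval −0.28 to 0.42, adjusted p = 0.80). An antisense gene overlaps Atp6v0b as well, and the strand setting of the counting is again not known. Other genes hold 8.59% of the 50-base words of all its transcripts and 2.42% of those of its main transcript. Its lead over Atp6v0c is uncertain, since reads of that gene may be missing.

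Atp6v0c (chr17:24163866-24169702, minus strand), the c subunit, is the least certain of the 10. It has 2 annotated pseudogenes, Atp6v0c-ps1 and Atp6v0c-ps2, and 32.5% of the 50-base words of its main transcript occur in other genes, so the counting may have left out or split part of its reads. It had 233 to 1031 counts per library. In total mRNA it was at 13.1, 5.66 and 6.83 CPM in control, 12.997, 13.7 and 13.5 CPM with LPS and 31.1, 17.6 and 29.8 CPM with LPS and torin1. Control experiment 1 reached the LPS level, and all libraries with torin1 lay above the LPS libraries. The differences were 0.66 (SE 0.30, adjusted p = 0.10) for LPS and 0.97 (SE 0.30, adjusted p = 0.034) for torin1. On polysomes the groups overlapped throughout, and the differences were 0.16 (95% interval −0.77 to 1.08, adjusted p = 0.81) and 0.56 (−0.36 to 1.49, adjusted p = 0.40). The LPS difference on polysomes was 0.91 without experiment 1, where it was called, and −0.50 without experiment 2.

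The d subunit joins the ring to the rotor. Atp6v0d1 (chr8:105524465-105566047, minus strand), the isoform found in most tissues, averaged 87.2 ± 8.97 CPM in control, 120 ± 12.4 CPM with LPS and 152 ± 5.26 CPM with LPS and torin1 in total mRNA, without overlap. On polysomes it averaged 141 ± 7.35, 205 ± 38.2 and 243 ± 17.8 CPM, and LPS experiment 1 reached the level seen with torin1. LPS raised it by 0.46 (SE 0.11, adjusted p = 0.0066) in total mRNA and 0.54 (SE 0.16, adjusted p = 0.026) on polysomes. The torin1 differences were 0.35 (SE 0.11, adjusted p = 0.040) and 0.27 (SE 0.16, adjusted p = 0.29), the latter being called with the experiment as a block (0.28, adjusted p = 0.13) and in one model of all 18 libraries (0.25, adjusted p = 0.19).

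Atp6v0d2 (chr4:19876841-19922605, minus strand), the isoform known from osteoclasts and macrophages, where it takes part in cell fusion, had the least mRNA per kilobase of the 10 in control and LPS cells, overlapping Atp6v0c in control, and rose with torin1. Total mRNA stood at 2.46, 9.30 and 6.33 CPM in control, 3.20, 6.67 and 5.23 CPM with LPS and 11.7, 25.7 and 24.1 CPM with LPS and torin1. On polysomes it was at 2.00, 6.93 and 4.95 CPM, then 2.44, 4.46 and 3.76 CPM, then 11.01, 15.9 and 23.7 CPM. Control and LPS libraries overlapped, with experiment 1 the lowest of its treatment in each case, and every torin1 library lay above them. With LPS the difference was −0.26 (95% interval −1.27 to 0.74, adjusted p = 0.67) in total mRNA and −0.37 (−1.32 to 0.57, adjusted p = 0.55) on polysomes. These intervals also carry the spread between experiments. Within experiments 1, 2 and 3 the LPS difference in total mRNA was 0.32, −0.45 and −0.25. Without experiment 1 the total mRNA difference was −0.38 and was called (adjusted p = 0.22). Torin1 raised it by 2.02 (SE 0.46, adjusted p = 0.0092) in total mRNA and 2.26 (SE 0.44, adjusted p = 0.0088) on polysomes, 4.06-fold and 4.80-fold, in 3 of 3 experiments. Taken within experiments, the torin1 step was 1.72, 1.87 and 2.10 in total mRNA and 1.97, 1.72 and 2.50 on polysomes.

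Other osteoclast genes were looked at beside Atp6v0d2. Of 8 listed, 6 were counted, and Calcr and Oscar were not in the table. With LPS, where Atp6v0d2 was not called, 3 of the 6 rose and 1 fell in each RNA type, against 32.2% of all genes upward in total mRNA and 26.4% on polysomes. With torin1, 3 rose and 1 fell in total mRNA, and 3 rose on polysomes, against 27.3% and 20.3% of all genes upward. With the experiment as a block 3 rose and 2 fell in each RNA type. The 3 that rose on polysomes were Ctsk, the collagen-cleaving protease cathepsin K, by 2.14 (adjusted p = 0.010), Acp5, tartrate-resistant acid phosphatase, by 1.92 (adjusted p = 0.0088), and Dcstamp, a fusion protein, by 1.52 (adjusted p = 0.0071). The summed CPM of the 6 genes ranged from 115 to 285 in LPS libraries and from 218 to 334 in LPS with torin1 libraries of total mRNA, and from 175 to 287 in control. Their part in the Atp6v0d2 result was not tested.

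Of 3 listed markers of dendritic cells, 2 were counted, and Flt3 was not in the table. In total mRNA Itgax, which encodes the integrin CD11c, rose with LPS by 2.45 (adjusted p = 0.0028), and Zbtb46, a transcription factor, fell by 1.07 (adjusted p = 0.061). With torin1 both were higher in total mRNA, Zbtb46 by 0.90 (adjusted p = 0.15) and Itgax by 0.83 (adjusted p = 0.21). Their summed CPM ranged from 3.39 to 7.06 in control, from 9.95 to 32.9 with LPS and from 23.9 to 58.0 with LPS and torin1. Their part in the results on the 10 genes was not tested.

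Atp6v0e (chr17:26663231-26699647, plus strand), the e1 isoform, and Atp6v0e2 (chr6:48537615-48541801, plus strand) encode the smallest subunit and went opposite ways with LPS. Atp6v0e averaged 118.7 ± 8.36 CPM in control, 139 ± 14.5 CPM with LPS and 166 ± 2.65 CPM with LPS and torin1 in total mRNA, where only control and LPS overlapped. It rose by 0.22 (SE 0.10, adjusted p = 0.10) with LPS in total mRNA and by 0.42 (SE 0.17, adjusted p = 0.077) on polysomes. Torin1 raised it by 0.26 (SE 0.10, adjusted p = 0.086) in total mRNA, with a difference of 0.03 (95% interval −0.33 to 0.40, adjusted p = 0.92) on polysomes. Atp6v0e2 was at 32.2, 33.9 and 30.4 CPM in control, 16.3, 17.2 and 21.6 CPM with LPS and 16.6, 18.6 and 16.4 CPM with LPS and torin1 in total mRNA. Its control libraries were the highest in both RNA types, and the libraries with and without torin1 overlapped in total mRNA. It fell by 0.81 (SE 0.13, adjusted p = 0.00051) with LPS in total mRNA and by 0.73 (SE 0.13, adjusted p = 0.0016) on polysomes. The torin1 differences of −0.09 (adjusted p = 0.62) and −0.18 (adjusted p = 0.37) were not called.

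The accessory subunits changed by small amounts. Atp6ap1 (chrX:74297097-74304721, plus strand) averaged 209 ± 8.10, 234 ± 15.9 and 291 ± 28.7 CPM in total mRNA over the 3 treatments, without overlap. Its LPS difference was 0.16 (SE 0.10, adjusted p = 0.23) in total mRNA and 0.23 (SE 0.15, adjusted p = 0.29) on polysomes, and its torin1 difference was 0.31 (SE 0.10, adjusted p = 0.043) and 0.13 (SE 0.15, adjusted p = 0.61). Atp6ap2 (chrX:12587801-12617049, plus strand) averaged 166 ± 9.47, 193 ± 10.01 and 227 ± 21.0 CPM in total mRNA, also without overlap. It rose with LPS by 0.22 (SE 0.10, adjusted p = 0.10) in total mRNA and 0.32 (SE 0.19, adjusted p = 0.23) on polysomes, and with torin1 by 0.23 (SE 0.10, adjusted p = 0.11) in total mRNA. The polysome difference with torin1 was 0.18 (95% interval −0.24 to 0.60, adjusted p = 0.56), and its libraries spread from 117.2 to 199.3 CPM.

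The levels of the 10 genes were compared with each other per kilobase. In control total mRNA, over the length of all exons, the order was Atp6v0b (115 CPM per kilobase), Atp6ap1 (69.1), Atp6ap2 (63.4), Atp6v0d1 (48.6), Atp6v0e (32.0), Atp6v0a2 (16.4), Atp6v0e2 (13.5), Atp6v0a1 (6.52), Atp6v0c (2.53) and Atp6v0d2 (2.22). Of the neighbours in this order, only Atp6v0c and Atp6v0d2 overlapped between their 3 libraries. The place of Atp6v0c is uncertain in every group. Of the 50-base words of its main transcript, 32.5% occur in other genes, so reads may be missing from its counts. The place of Atp6v0e depended on the length used, as its exons together span 3712 bases and its main transcript 823 bases, and with the latter it came next after Atp6v0b at 144 CPM per kilobase. In cells with LPS and torin1, Atp6v0a1 had moved up to 33.3 CPM per kilobase of exon and stood above Atp6v0a2 at 15.3, without overlap. Atp6v0c (7.75), Atp6v0d2 (7.55) and Atp6v0e2 (7.22) overlapped there at the bottom of the order.

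The ratio of isoforms within each library does not depend on the library's size and was tested across the 3 treatments by an exact permutation test, with 6 tests adjusted together. The log2 ratio of Atp6v0a1 to Atp6v0a2 counts in total mRNA was −1.36 ± 0.10 in control, −0.20 ± 0.15 after LPS and 1.05 ± 0.32 with both agents (SD, n = 3). On polysomes it was −1.60 ± 0.09, −0.64 ± 0.11 and 0.59 ± 0.33. The 3 treatments did not overlap in either RNA type (exact permutation p = 0.00357, adjusted p = 0.0107 in each). Within experiments the total mRNA ratio rose 2.23-fold with LPS and a further 2.39-fold with torin1, each time in 3 of 3. Per kilobase of exon, a1 mRNA was thus 0.40 times a2 mRNA in control and 2.13 times in cells with both agents.

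The Atp6v0e to Atp6v0e2 ratio shifted mainly with LPS. In total mRNA its log2 value was 1.87 ± 0.03 in control, 2.89 ± 0.36 after LPS and 3.23 ± 0.12 with both agents, and on polysomes 2.02 ± 0.19, 3.14 ± 0.25 and 3.37 ± 0.13 (exact permutation p = 0.00714, adjusted p = 0.0107 in each). Control libraries lay below all others, while those with and without torin1 overlapped. Within experiments the ratio rose 2.02-fold with LPS in total mRNA, and the torin1 step was 0.35 ± 0.42 on the log2 scale.

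For Atp6v0d1 over Atp6v0d2 the direction was the reverse, with d2 gaining on d1 in torin1. The log2 ratio in total mRNA was 3.92 ± 0.78 in control, 4.48 ± 0.44 after LPS and 2.94 ± 0.57 with both agents, and on polysomes 4.95 ± 0.80, 5.66 ± 0.59 and 3.87 ± 0.64. Groups overlapped, and the exact permutation test gave p = 0.10 (adjusted p = 0.10) in total mRNA and p = 0.0571 (adjusted p = 0.0686) on polysomes. Experiment 1 had the highest d1 to d2 ratio in all 6 groups. Within experiments the ratio in total mRNA fell by 1.54 ± 0.13 with torin1, in 3 of 3, and permuting treatments within experiments gave an exact p of 0.0278, which is the smallest that this design can give. Even with torin1, d1 mRNA per kilobase of exon was 11.6 times d2 mRNA in total and 22.2 times on polysomes.

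**Figure D3:**
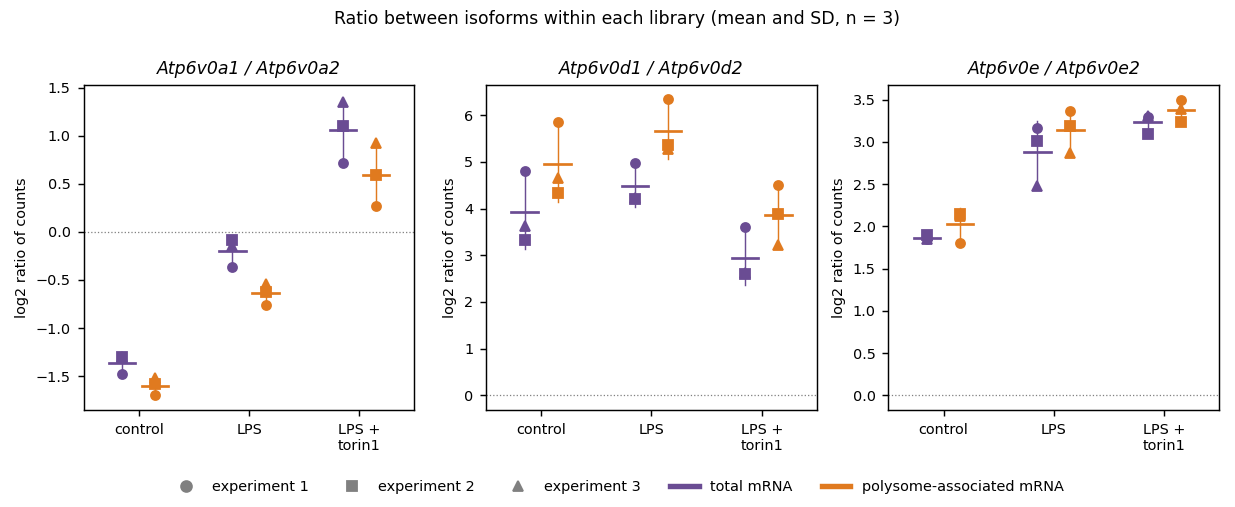
Log2 ratio of counts between isoforms in each library, for a1 over a2, d1 over d2 and e over e2, with mean and SD of 3 experiments, total mRNA in purple and polysome-associated mRNA in orange. The a1 over a2 ratio climbs from −1.36 to 1.05 in total mRNA, d1 over d2 drops with torin1 and e over e2 climbs with LPS.

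Most V0 mRNAs were enriched on heavy polysomes, and Atp6ap2 was depleted. In control cells 8 of the 10 genes were called between polysome-associated and total mRNA, 7 higher on polysomes and 1 lower, against 69.6% of all genes called, 36.3% higher and 33.2% lower. The median log2 difference was 0.56 for the 10 genes and 0.03 for all. With LPS 7 were called (6 higher, 1 lower, against 65.2% of all genes, 34.1% of them upward), and with LPS and torin1 also 7 (6 higher, 1 lower, against 55.6% of all genes, 27.8% upward). These differences are relative to the average mRNA of each library and do not give an absolute share on polysomes.

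The order on polysomes did not follow the domain's groups. Atp6v0e led with 0.95 (SE 0.13, adjusted p = 0.00011) in control, 1.14 with LPS and 0.89 with LPS and torin1. It was followed in control by Atp6v0b at 0.81 (SE 0.12, adjusted p = 0.00012), Atp6v0e2 at 0.79 (SE 0.12), Atp6v0d1 at 0.70 (SE 0.13) and Atp6v0a2 at 0.62 (SE 0.10). Both e isoforms were thus enriched on polysomes, while their total mRNA went opposite ways with LPS. Atp6ap1 was at 0.43 (SE 0.13, adjusted p = 0.010), and Atp6v0a1 at 0.37 (SE 0.18, adjusted p = 0.089) was called in control only, with 0.19 and 0.12 in the other groups. Atp6ap2 was lower on polysomes, at −0.51 (SE 0.16, adjusted p = 0.015) in control, −0.40 (adjusted p = 0.048) with LPS and −0.48 (adjusted p = 0.031) with LPS and torin1. Without experiment 1 the LPS value of Atp6ap2 (−0.34, adjusted p = 0.29) and the torin1 value of Atp6ap1 (0.26, adjusted p = 0.32) were not called.

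Since both libraries of a pair come from 1 lysate, the comparison was also fitted with the lysate as a block, and this changed calls. Atp6v0d2 then lay below total mRNA, at −0.37 (adjusted p = 0.043) in control, −0.49 (adjusted p = 0.014) with LPS and −0.27 (adjusted p = 0.11) with LPS and torin1, all called, and was lower on polysomes in each of the 9 lysates. In the fit without the block it was not called (adjusted p = 0.52, 0.42 and 0.67), except with LPS when experiment 1 was left out (−0.54, adjusted p = 0.19). The blocked fit also called Atp6v0a1 with LPS at 0.20 (adjusted p = 0.098) and Atp6v0c at 0.45 (adjusted p = 0.14) in control and −0.45 (adjusted p = 0.16) with LPS and torin1, where the fit without the block called it at −0.91 when experiment 2 was left out. With the block 10, 9 and 9 of the 10 genes were called in control, LPS and LPS with torin1, against 80.0%, 76.9% and 70.5% of all genes.

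**Figure D4:**
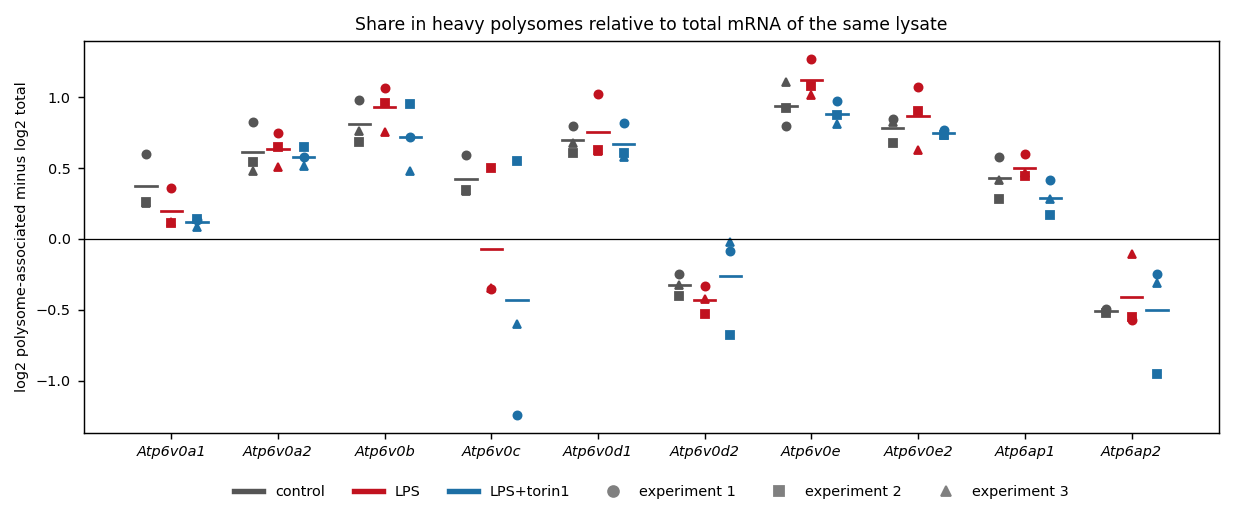
Log2 difference between the polysome and total library made from each lysate, gene by gene and by treatment (grey control, red LPS, blue LPS with torin1), with a marker shape for each experiment and bars at the means. Atp6v0e lies highest, Atp6ap2 and Atp6v0d2 lie below 0 in all 9 lysates, and Atp6v0c spreads most.

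Whether a treatment shifted polysome association beyond the change in total mRNA was tested as translation efficiency, the interaction of RNA type and treatment, with a minimum fold of 1.2. By edgeR 0 of the 10 genes passed in any contrast, as did 0 of all 11243 genes (0%), and none of the 10 had an unadjusted p under 0.05. The fit with the lysate as a block called 0 of the 10 too, and of all genes it called 0 for LPS, 25 (0.222%) for torin1 and 3 (0.0267%) for both agents against control. DESeq2 called 0 of the 10 and 1 of 11243 genes for LPS, and the same for both agents against control. For torin1 it gave an adjusted p for only 7 of the 10 and for 2524 genes, of which it called 0 and 13. An analysis of partial variance called 0 of the 10 and, of all genes, 2 for LPS, 7 for torin1 and 2 for both agents. By anota2seq, the study itself reported a subset of mRNAs whose translation efficiency changed with LPS. Among lysosomal genes this subset included M6pr, Lamp2 and Cln3. The study also reported several V-ATPase subunits as higher on heavy polysomes with LPS. The 0 calls by edgeR therefore do not show that translation was unchanged in these cells. The intervals below come from the edgeR fit without the block. They therefore also carry spread between experiments that both libraries of a lysate share. Taken within experiments, the Atp6v0a1 difference with LPS was −0.24, −0.15 and −0.14. For Atp6v0b the torin1 difference in translation efficiency was −0.22 (95% interval −0.56 to 0.13), for Atp6v0e −0.25 (−0.65 to 0.15) and for Atp6v0a2 −0.05 (−0.36 to 0.25). For Atp6v0a1 it was −0.19 (−0.71 to 0.34) with LPS and −0.07 (−0.60 to 0.46) with torin1. The intervals were widest for Atp6v0d2, at 0.22 (−1.21 to 1.64) with torin1, and Atp6v0c, at −0.43 (−1.60 to 0.75). These genes also had the fewest counts, and the source of the width was not tested. Within experiments the torin1 difference was 0.25, −0.15 and 0.40 for Atp6v0d2, and −0.89, 0.052 and −0.25 for Atp6v0c.

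The V1 subunits, which form the catalytic domain, were counted for 9 of 13 genes. With LPS 5 of 9 rose in total mRNA and 3 on polysomes, against 32.2% and 26.4% of all genes, with medians of 0.29 and 0.29 beside 0.23 and 0.28 for the V0 and accessory genes. On polysomes these were Atp6v1e1, a stator subunit, by 0.90 (adjusted p = 0.0015), Atp6v1h, which regulates ATP hydrolysis, by 0.62 (adjusted p = 0.022) and Atp6v1d, of the central stalk, by 0.60 (adjusted p = 0.030). Torin1 raised 7 of 9 in total mRNA and 5 on polysomes, against 27.3% and 20.3% of all genes, with Atp6v1a, the catalytic subunit, at 0.82 (adjusted p = 0.021), Atp6v1d at 0.63 (adjusted p = 0.047) and Atp6v1c1 at 0.55 (adjusted p = 0.072) on polysomes. Set between polysome-associated and total mRNA in control, 2 of the 9 V1 genes were higher and 4 lower, against 36.3% and 33.2% of all genes. Their median was −0.23, beside 0.56 for the V0 and accessory genes and 0.03 for all genes.

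Of the V0 assembly factors of the endoplasmic reticulum, 3 of 3 were called on polysomes with LPS, 2 higher and 1 lower, against 55.1% of all genes called. Vma21 rose by 1.56 (adjusted p = 0.00051) and Tmem199 by 0.55 (adjusted p = 0.0060), while Ccdc115 fell by 0.43 (adjusted p = 0.084). Of 8 counted regulators of V1 and V0 association, 5 fell on polysomes with LPS and none rose, against 28.7% of all genes downward and 26.4% upward. They included Rogdi, at −1.06 (adjusted p = 0.010), and Tbc1d24, at −0.52 (adjusted p = 0.018). With torin1, 6 of these 8 rose on polysomes and 1 fell, against 20.3% and 18.2% of all genes, and among those that rose was Wdr7, of the rabconnectin complex, at 0.81 (adjusted p = 0.0079).

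Of the MiT/TFE factors that bind the E-box, 3 of 4 rose and 1 fell with LPS in both RNA types, where 66.5% of all genes were called in total mRNA and 55.1% on polysomes. Tfeb fell by 2.90 (adjusted p = 8.7e-05) on polysomes, while Tfec rose by 2.21 (adjusted p = 9.8e-05) and Mitf by 0.56 (adjusted p = 0.053). In total mRNA Tfe3 rose by 0.41 (adjusted p = 0.0048). With torin1 all 4 rose in total mRNA, against 27.3% of all genes, and on polysomes Mitf alone of the 4 was called, at 0.53 (adjusted p = 0.10), against 20.3% of all genes upward. Among 9 counted partners in amino acid sensing, 3 rose and 1 fell on polysomes with LPS, against 55.1% of all genes called, 26.4% upward and 28.7% downward. They include Rragb at −1.26 (adjusted p = 0.0012) and Rragc at 0.76 (adjusted p = 0.0059), which encode Rag GTPases that recruit mTORC1.

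The genes whose level followed each subunit most closely were found by Pearson correlation of log2 CPM over the 18 libraries, among 10271 genes with a mean of at least 1 CPM. The libraries come from 9 lysates in 3 treatments, and the values are a description. Atp6v0a1 was closest to Ptk2b (r = 0.980), Atp6v0a2 to Eif5a (0.982) and Atp6v0b to Dhps (0.972). Atp6v0d1 was closest to Cstb (0.980), Gabarapl1 (0.973) and Cd63 (0.973), which encode a cathepsin inhibitor, an autophagy protein and an endo-lysosomal tetraspanin. Atp6v0d2 was closest to Bhlhe41 (0.957), Atp6v0e to Ssu72 (0.976) and Atp6v0e2 to Slc37a4 (0.987). For Atp6ap1 and Atp6ap2 the closest were Gpr107 (0.939) and Gtf2a1 (0.962), and Atp6v0c reached no more than 0.857, with Atat1.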

How the data were processed

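Per the labels and the study's methods, ribosomal RNA was removed, stranded libraries were made, and the authors aligned reads with Hisat2 to GRCm38 and counted them per gene. The deposited values are raw counts for 11243 protein-coding genes in 18 libraries, with a lowest value of 1, so genes with a 0 in any library are not in the table. Counts were normalized by TMM and tested with edgeR 4.0.16 (R 4.3.3), separately for total and polysome-associated mRNA, and in a model of all 18 libraries for polysome against total and for translation efficiency (interaction, fold at least 1.2). Calls were made at an FDR of 0.25. The authors' anota2seq was not run here, and an analysis of partial variance in limma 3.58.1 and DESeq2 1.42.0 served as alternatives. Isoform ratios used CPM plus 0.5 and exact permutation F tests over samples. Lengths came from GENCODE on GRCm38. Scripts were tested on simulated counts.

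The members and gene lists were chosen with earlier results of these data known. Named were all 10 members, Tcirg1, the closest genes by correlation, and up to 3 called genes per list with the largest polysome change; others in the lists are counted, and Tfe3 was named in addition after its values were seen. Deviations of same-numbered total mRNA libraries correlated at 0.127 to 0.54, so experiment numbers pair these. They also pair polysome libraries with LPS and with LPS and torin1 (0.59 to 0.843). Polysome controls correlated with the same-numbered treated libraries in experiment 3 (0.477 and 0.444) but not in experiments 1 and 2 (−0.141 to 0.0298). Both libraries of a lysate (0.478 to 0.774) are paired by origin. Libraries held 27800983 to 47725557 counts, and members 75 (Atp6v0d2) to 25939 (Atp6v0b) counts per library.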

Additional observations from a re-analysis of the deposited data

How the results depend on the processing

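Every call above rests on 3 experiments and an FDR of 0.25. At an FDR of 0.05, members called fell to 4 for LPS in total mRNA, 4 for LPS on polysomes and 5 for LPS with torin1 against control on polysomes. One model over all 18 libraries called 5 members for torin1 on polysomes. Leaving out 1 experiment gave 5 to 9 members for torin1 in total mRNA, 4 to 6 for LPS on polysomes and 2 to 6 for torin1 on polysomes. TMM against DESeq2 size factors, DESeq2, and a minimum of 10 counts kept all counts of members within 1.5 times. Over all genes, an FDR of 0.05 left 3279 called for torin1 in total mRNA (6038 at 0.25), and on polysomes 3654 for LPS (6191), 1557 for torin1 (4322) and 3950 for both agents against control (6546), with 4841 (7328) and 3481 (6252) between polysomes and total mRNA in cells with LPS and with both agents. For torin1, 3959 were called without experiment 3 in total mRNA, and 1782 and 1187 on polysomes without experiment 1 or 3. On polysomes 3901 were called for LPS without experiment 1 and 4156 for both agents against control without experiment 3. For translation efficiency, 430 of all genes, none of them members, were called for both agents against control without experiment 2, against 0 with all experiments.

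On polysomes the deviations of same-numbered libraries did not all correlate above 0.1 where controls were involved (lowest −0.141), while those of the 3 pairs with LPS and with LPS and torin1 did (0.59 to 0.843). With the replicate block 8 members were called for LPS, Atp6ap1 (0.23, adjusted p = 0.13) being added, and 4 for torin1, as given above. The block changed no member's call in total mRNA. Permuting within experiments gave an exact p of 0.0278 for the d1 to d2 ratio, whose LPS step was 0.55 in total mRNA and 0.71 on polysomes.

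With 1 experiment left out, 2 libraries per treatment cannot reach an exact p below 0.0667, so these p-values say nothing on stability. The LPS step of the a1 to a2 log2 ratio ranged from 1.13 to 1.18 in total mRNA and from 0.95 to 0.97 on polysomes, and that of the e to e2 ratio from 0.87 to 1.21 and from 0.89 to 1.31.

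Values that changed sign had not been called. Under an analysis of partial variance, the translation efficiency difference with LPS became 0.29 for Atp6v0a1 and −0.63 for Atp6v0e2, and that with torin1 became 0.24 for Atp6v0a1, 0.10 for Atp6v0c, 0.34 for Atp6v0b, 0.047 for Atp6v0d1 and 0.11 for Atp6ap2, none of them called, and the cause was not tested. With 1 experiment left out, log2 differences that spanned 0 were those with torin1 of Atp6v0e2 in total mRNA (−0.20 to 0.072) and of Atp6v0e on polysomes (−0.053 to 0.14), with LPS of Atp6v0c on polysomes (−0.50 to 0.91), with both agents of Atp6v0a2 on polysomes (−0.22 to 0.012), and between polysomes and total mRNA of Atp6v0c in LPS cells (−0.37 to 0.15). For translation efficiency they were, with LPS, Atp6v0a2 (−0.030 to 0.051), Atp6v0e2 (−0.0064 to 0.24), Atp6v0d1 (−0.037 to 0.13) and Atp6ap2 (−0.054 to 0.17), and, with torin1, Atp6v0a1 (−0.13 to 0.036), Atp6v0a2 (−0.084 to 0.045), Atp6v0e2 (−0.24 to 0.018), Atp6v0d1 (−0.14 to 0.012) and Atp6ap2 (−0.22 to 0.047).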
